A study of Mus musculus with 2 samples.

Results

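The 10 genes described here encode lectin-like receptors of natural killer (NK) cells: Klra3, Klra4, Klra7, Klra8, Klra9, Klrb1c, Klrc1, Klrd1, Klrg1 and Klrk1. They were chosen by symbol from the 32285 genes of the count matrices, with no measured value in the rule, and all 10 were found. Live CD45+ leukocytes were isolated by flow sorting from tumours in the livers of C57BL/6 mice and profiled with 10x Genomics 3' v3 single-cell RNA sequencing, which counts unique molecular identifiers (UMIs) at the 3' ends of transcripts. The tumours grew from luciferase-labelled RIL-175 cells, a mouse hepatocellular carcinoma line, implanted into the liver. All mice had a methionine- and choline-deficient (MCD) diet, which gives fatty liver disease, for 2 weeks before implantation. The AKK group was fed 5000000000 colony-forming units of the gut bacterium Akkermansia muciniphila and the control group was fed phosphate-buffered saline (PBS). Feeding began 2 weeks before the diet, was stopped for 6 days after surgery and then went on to the end. There was 1 library per group, and the labels used here do not say how many mice each library held. No test between groups was therefore possible, and every interval below is a 95% interval for counting error within these 2 libraries. Both groups had the diet and a tumour, and neither library came from healthy liver.

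NK cells read the surface of other cells through pairs of inhibitory and activating receptors. The Ly49 receptors are encoded by the Klra genes, and many but not all of them bind classical MHC class I molecules in mice. Ly49C (Klra3), Ly49G (Klra7) and Ly49I (Klra9) inhibit through an intracellular tyrosine motif. Ly49D (Klra4) and Ly49H (Klra8) activate through the adaptor DAP12, encoded by Tyrobp. CD94 (Klrd1) pairs with NKG2A (Klrc1) into an inhibitory receptor for the nonclassical MHC molecule Qa-1b, NKG2D (Klrk1) is an activating receptor for stress ligands of the RAE-1, MULT1 and H60 families, NK1.1 (Klrb1c) defines NK cells in C57BL/6 mice, and KLRG1 (Klrg1) is an inhibitory receptor for cadherins carried by mature NK cells and some T cells. Single NK cells switch on differing sets of Ly49 genes, so that a population holds many receptor combinations.

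All 10 genes lie on mouse chromosome 6 (GRCm38 gene models of GENCODE M21, 1-based). The Ly49 members sit together on the minus strand over 294 kb: Klra4 at chr6:130043731-130067271, Klra8 at chr6:130115226-130129898, Klra9 at chr6:130178675-130193112, Klra7 at chr6:130218605-130233322 and Klra3 at chr6:130323289-130337574. Klrd1 is on the plus strand at chr6:129591782-129598775. The other neighbours are on the minus strand, Klrk1 at chr6:129610323-129623864, Klrc1 at chr6:129666015-129678973 and Klrb1c at chr6:128778485-128789215. Klrg1 is at chr6:122270596-122282882 on the minus strand, 6496 kb from the nearest of the other members. Klrb1c overlaps Gm44511 on the same strand, so reads in the overlap could belong to either gene.

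Promoter windows of 250 bases ending just before the annotated start were compared, since single NK cells differ in which Ly49 members they transcribe. RefSeq promoter sequences on GRCm38.p6 were found for 8 of the 10 members, with no entry for Klrd1 and Klrg1. The windows of Klra4 and Klra8 aligned with 212 of 251 columns identical (84.5%), with 37 mismatches and 2 gap columns. Capitals mark the bases of each sequence that had no identical partner in the other; Klra4 is chr6:130067272-130067521 and Klra8 is chr6:130129899-130130148, both on the minus strand and written 5' to 3'.
Klra4: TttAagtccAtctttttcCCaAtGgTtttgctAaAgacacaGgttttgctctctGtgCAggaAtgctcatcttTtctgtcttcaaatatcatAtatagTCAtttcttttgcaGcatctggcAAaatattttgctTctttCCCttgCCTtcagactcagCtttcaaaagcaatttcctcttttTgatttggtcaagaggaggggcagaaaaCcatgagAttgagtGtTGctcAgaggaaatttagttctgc
Klra8: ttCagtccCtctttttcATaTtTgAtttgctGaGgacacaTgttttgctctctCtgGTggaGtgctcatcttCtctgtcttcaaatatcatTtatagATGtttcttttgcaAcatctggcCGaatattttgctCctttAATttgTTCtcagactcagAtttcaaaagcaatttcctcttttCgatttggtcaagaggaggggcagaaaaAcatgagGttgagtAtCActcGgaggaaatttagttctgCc
The windows of Klra3 (chr6:130337627-130337876) and Klra9 (chr6:130193113-130193362), also on the minus strand, aligned with 224 of 269 columns identical (83.3%), with 7 mismatches and 38 gap columns.
Klra3: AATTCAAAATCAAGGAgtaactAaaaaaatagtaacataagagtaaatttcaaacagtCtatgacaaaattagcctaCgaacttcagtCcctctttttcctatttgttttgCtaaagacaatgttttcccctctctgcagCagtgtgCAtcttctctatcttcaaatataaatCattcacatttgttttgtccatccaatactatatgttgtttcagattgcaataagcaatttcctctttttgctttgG
Klra9: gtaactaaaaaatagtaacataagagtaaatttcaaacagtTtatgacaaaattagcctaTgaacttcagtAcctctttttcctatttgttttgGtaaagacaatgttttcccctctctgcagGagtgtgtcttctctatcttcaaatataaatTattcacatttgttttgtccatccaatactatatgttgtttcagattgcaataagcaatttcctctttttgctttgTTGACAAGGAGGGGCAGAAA
These pairs are shown because Klra4 was detected more often in Klra8-positive than in Klra8-negative cells, which was not seen for Klra3 and Klra9, as described below. Klra7 and Klra8 have 2 annotated starts each, and the window printed for Klra8 is that of its first start. The window of its second start was 51.9% identical to that of Klra4. The window of the second start of Klra7 was 74.0% identical to that of Klra4 and 74.7% to the first of Klra8. The remaining pairs of windows from different Ly49 members had 37.9% to 52.3% identical columns. These shares depend on where the annotated starts lie. The windows of the 2 starts of Klra8 overlap in the genome, yet they aligned with 187 of 313 columns identical (59.7%). A low share therefore does not show that the sequences around 2 genes are unlike.

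Short motifs were searched on both strands in the same windows. The T-box core GGTGTNA, the letters bound by factors such as Eomes and T-bet, was in 8.61% of 32851 mouse promoter windows and in 1 of the 8 members, Klrc1. Its window, chr6:129678974-129679223 on the minus strand, holds the motif at 2 places, given in capitals.
Klrc1: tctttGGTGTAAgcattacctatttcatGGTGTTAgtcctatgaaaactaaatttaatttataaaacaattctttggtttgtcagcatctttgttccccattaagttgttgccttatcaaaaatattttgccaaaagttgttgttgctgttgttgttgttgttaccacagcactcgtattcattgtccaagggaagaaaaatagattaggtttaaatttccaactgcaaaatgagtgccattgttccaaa
The Runx motif TGTGGT, in 14.0% of all windows, was in Klrb1c, Klrc1 and Klrk1 and in none of the 5 Ly49 members. The letters TATAAA, in 12.4% of all windows, were in 5 of the 8 members: Klra3, Klra7, Klra8, Klra9 and Klrc1. The ETS motif GGAAGT (19.7% of windows) was in Klrb1c alone, and the TCF motif CTTTGA (13.8%) in Klra7 alone. A match is a run of letters and not a bound site, and a missing match says nothing of a factor.

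The PBS library held 5088 barcodes and 64731604 UMIs and the AKK library 6610 barcodes and 74495998 UMIs, with medians of 6558.5 and 6488 UMIs per barcode. After filters for low genes, mitochondrial reads and predicted doublets, 4636 and 6172 cells were kept. Of these, 760 and 1517 lay in clusters of T, NK or ILC1 cells, a count that leaves out B and plasma cells. Only 8 barcodes occurred in both libraries. Cells were clustered and named without any Klr gene, so the members took no part in defining a subset. NK-like cells numbered 158 in PBS (3.41% of kept cells) and 386 in AKK (6.25%), and ILC1-like cells 123 (2.65%) and 146 (2.37%). The T cells were split into effector CD8 T-like cells (201 and 350), naive-like T cells (59 and 175), Treg-like cells (69 and 111), CD4 helper-like cells (91 and 159) and gamma-delta T-like cells (26 and 101), beside an unnamed T cluster (25 and 60). A further cluster of dividing cells (8 and 29) was left unnamed and is not described below. ILC1, tissue-resident relatives of NK cells, were called only from fixed markers, and that list alone did not set them apart: its summed level was 1970 and 2442 CPM (UMI counts of a gene scaled to a fixed total per subset and library) in ILC1-like cells but also 2521 and 2507 CPM in effector CD8 T-like cells. A UMI of a Cd3 gene was present in 21.1% and 27.4% of the ILC1-like cells and in 12% and 14.5% of the NK-like cells, and 7 of the 9 NK markers were detected in ILC1-like cells, S1pr5 and Cma1 being at 0. The NK transcription factor Eomes was at 22.5 CPM in PBS and 16.6 CPM in AKK ILC1-like cells, against 378 and 425 CPM in NK-like cells.

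Transcripts were counted at their 3' ends, where some members resemble one another. Of the 50-base words in the last 500 bases of each transcript, 42.4% of those of Klra3 and 44.8% of those of Klra9 also occur in another Klr gene, most of them shared between these 2. The share was 27.5% for Klra7 (with Klra13-ps), 13.1% for Klra8, 4.66% for Klra4 and 56.3% for Klrc1 (with Klrc2), and 0% for Klrb1c, Klrd1, Klrg1 and Klrk1. The labels do not state how reads that match more than 1 gene were assigned, so the levels of Klra3, Klra9, Klra7 and Klrc1 are uncertain for that reason.

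**Figure D1:**
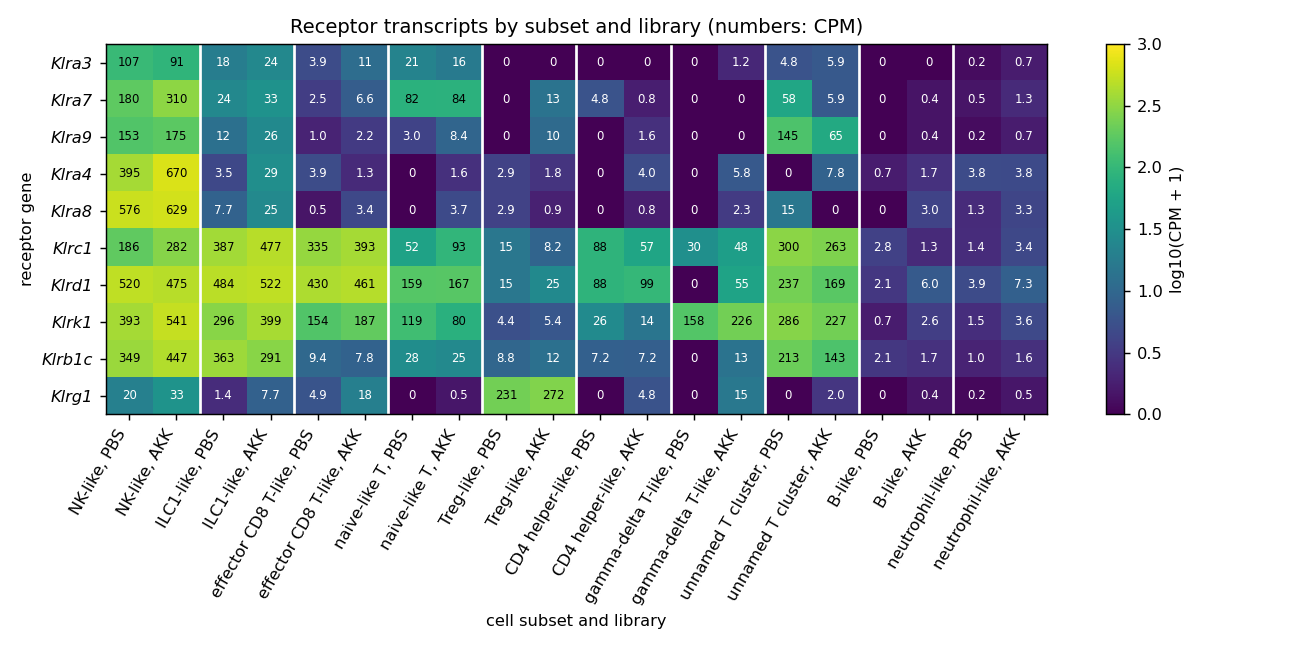
Level of each member (rows, colour: log10 of CPM + 1, printed number: CPM) in each cell subset and library (columns, PBS beside AKK). The Klra rows are highest in NK-like cells, Klrc1, Klrd1 and Klrk1 also in ILC1-like and effector CD8 T-like cells, and Klrg1 in Treg-like cells.

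The activating Ly49 receptors separated NK-like from ILC1-like cells in both libraries. Klra4 stood at 395 CPM in NK-like cells and 3.52 CPM in ILC1-like cells of PBS, and at 670 and 29.3 CPM in AKK, which is 112-fold (interval 47.8 to 347) and 22.9-fold. Klra8 stood at 576 against 7.75 CPM in PBS and 629 against 24.9 CPM in AKK, 74.3-fold and 25.3-fold. The AKK levels of ILC1-like cells rested on few cells, since 1 cell held 37 of their 46 Klra4 UMIs and 2 cells held all 39 Klra8 UMIs. The inhibitory Ly49 receptors were also higher in NK-like cells, by 12.8-fold and 6.86-fold for Klra9, 7.52-fold and 9.54-fold for Klra7, and 6.09-fold and 3.77-fold for Klra3.

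Klrd1, Klrk1, Klrc1 and Klrb1c were found in both NK-like and ILC1-like cells, whereas Klrg1 was mostly in NK-like cells. Klrd1 was 1.07-fold and Klrk1 1.33-fold the ILC1-like level in PBS, and 0.911-fold and 1.36-fold in AKK. Klrc1 was the only member more than 1.5-fold lower in NK-like than in ILC1-like cells, at 0.481-fold in PBS and 0.591-fold in AKK. Klrb1c stood at 0.961-fold in PBS and 1.53-fold in AKK. Klrg1 had 2 UMIs in the ILC1-like cells of PBS, a ratio of 13.9 (3.51 to 120), and in AKK the ratio was 4.37. Genes with at least 20 UMIs over both groups compared are called tested here, which names a rule of size and no statistical test. Past a 1.5-fold difference, 6 of 10 members were higher and 1 lower in PBS (10.2% of all genes tested were higher and 14.4% lower), and 7 were higher and 1 lower in AKK (11.0% and 16.4%). The members' median difference on the log2(CPM + 10) scale was 1.73 in PBS and 1.43 in AKK, beside -0.04 and -0.06 over all genes tested. Klra4, Klra8, Klra9 and Klrg1 in PBS, and Klrg1 in AKK, reached 20 UMIs through NK-like cells. These counts and medians therefore carry no weight of their own. Without the NK-like cluster with high S1pr5 the AKK median was 0.98 and the PBS median 1.77.

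Per-cell detection gave the same split. Cells were thinned to 4169 UMIs each so that depth was equal, leaving 144 and 347 NK-like cells and 117 and 137 ILC1-like cells. Klra8 was then detected in 52.8% of PBS and 52.2% of AKK NK-like cells (54.4% and 54.9% unthinned), against 1.71% and 1.46% of ILC1-like cells. Klrd1, in contrast, was detected in 83.3% and 80.7% of NK-like cells (89.2% and 93.0% unthinned) and in 81.2% and 72.3% of ILC1-like cells (91.9% and 87.7%). In neutrophil-like cells, which should lack these receptors, the thinned shares of the 10 members ran from 0% to 1.73% in PBS and from 0.233% to 2.18% in AKK. Neutrophil-like cells were shallow, with medians of 4775.5 and 4137 UMIs against 8719.5 and 8603.5 in NK-like cells. The Ly49 shares in ILC1-like cells, 1.71% to 5.13% in PBS and 1.46% to 6.57% in AKK, lay partly within that background.

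Between the libraries, NK-like cells of AKK held more transcripts of 4 members: the activating Klra4, the inhibitory Klra7 and Klrc1, and Klrg1. Klra4 was at 395 CPM in PBS and 670 CPM in AKK, a ratio of 1.70 (1.55 to 1.86). Klra7 was at 180 and 310 CPM, a ratio of 1.72 (1.51 to 1.97). Klrc1 was at 186 and 282 CPM, a ratio of 1.51 (1.33 to 1.73). Klrg1, a marker of late maturation, was low in both, at 19.5 and 33.4 CPM, with a ratio of 1.71 (1.14 to 2.65). These 4 of 10 members were past 1.5-fold, all higher. Of the 9825 genes tested 10.2% were past it on the higher and 10.9% on the lower side. The median log2 ratio was 0.40 over the members and 0.01 over all genes tested.

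The other 6 members differed by less than 1.5-fold in NK-like cells. Klrk1 was at 393 and 541 CPM (1.38, 1.25 to 1.51) and Klrb1c at 349 and 447 CPM (1.28, 1.16 to 1.42). The second activating Ly49 gene, Klra8, was nearly level at 576 and 629 CPM (1.09, 1.01 to 1.18), unlike Klra4, with which it shares its adaptor. Klra9 was at 153 and 175 CPM (1.14, 0.979 to 1.33). Klrd1, the partner of Klrc1, was slightly lower in AKK, at 520 and 475 CPM (0.915, 0.840 to 0.997). Klra3 was at 107 and 91.5 CPM (0.852, 0.704 to 1.04), with an interval that includes 1.

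**Figure D2:**
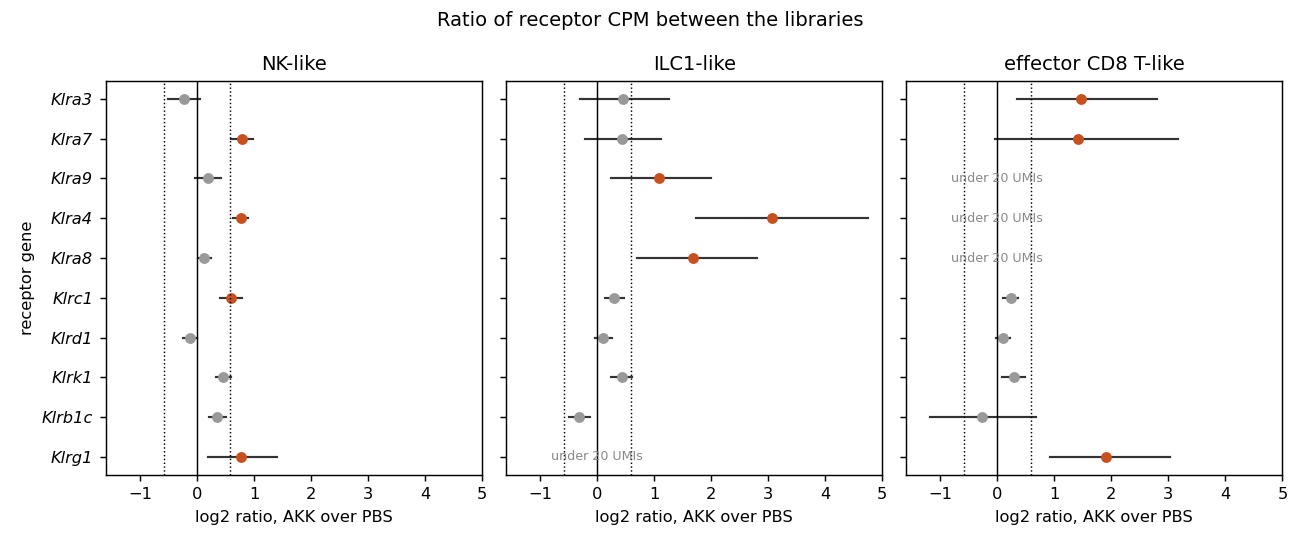
Log2 ratio of AKK over PBS for each member in NK-like, ILC1-like and effector CD8 T-like cells (points; red past 1.5-fold, grey within it) with the 95% interval for counting error (bars); dotted lines mark 1.5-fold. In NK-like cells Klra4 and Klra7 lie at ratios of 1.70 and 1.72, with shorter bars than the Ly49 points of the other subsets. The bars take each UMI as a separate draw, so spread between cells, mice or libraries is not in them.

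For Klra4 the excess lay mainly in the amount per positive cell. A Klra4 UMI was found in 71 of 158 PBS cells (44.9%) and 190 of 386 AKK cells (49.2%), and within those cells its level was 811 CPM in PBS and 1344 CPM in AKK, with medians of 7 and 10 UMIs. Klra7 was in 53.8% and 58.0% of cells, at 318 and 507 CPM within them. Klra8 was detected in 54.4% and 54.9% of cells, at 1061 and 1168 CPM within them. After thinning, Klra4 was detected in 40.3% (32.2% to 48.8%) and 48.4% (43.0% to 53.8%), Klra7 in 38.9% and 49.0%, Klrc1 in 41.0% and 50.7% (49.4% and 55.4% unthinned), and Klrg1 in 6.94% and 13% (13.3% and 18.7%). The intervals of the libraries overlapped for these 4 genes. No cell held more than 4.94% of the Klra4 UMIs of its library.

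These ratios depended on the processing for some members and not for others. Of the 9 other processing choices tried, leaving out the UMI minimum could not change these ratios. Klra4 stayed past 1.5-fold in all 9, with log2 ratios of 0.73 to 0.86. Klra7 and Klrg1 stayed past it in 8 of 9, falling short, at log2 ratios of 0.33 and 0.26, where NK-like cells were gated on single markers instead of clustered. Klrc1 stayed past it in 5 of 9, with log2 ratios of 0.50 to 0.75. It fell short with doublets kept (0.50), at least 500 genes (0.57), TMM scaling (0.58) and without the S1pr5-high cluster (0.53). Summed neutrophil markers in NK-like cells were 908 CPM in PBS and 581 CPM in AKK, and summed macrophage markers 145 and 71.5 CPM, so both lists were higher in PBS, and their part in these ratios was not tested.

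The NK-like cells formed 2 clusters that differed in S1pr5, a receptor for exit from tissue found on mature NK cells. The S1pr5-high cluster held 43 of 158 PBS cells (27.2%) and 96 of 386 AKK cells (24.9%), so the mixture was close in both libraries. Klrg1 was 13.2-fold (5.5 to 36.6) higher in it than in the S1pr5-low cluster in PBS and 7.94-fold (5.33 to 12) in AKK. The inhibitory Klra9 was 3.02-fold and 2.36-fold higher, and Klrb1c 1.65-fold and 1.85-fold. Klrc1 went the other way, at 0.656-fold in PBS and 0.870-fold in AKK. In PBS 6 of 10 members were past 1.5-fold higher and 1 lower (18.2% and 21.9% of all genes tested), and in AKK 4 were higher and 0 lower (12.1% and 15.5%).

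Within each NK-like cluster the members again differed between libraries. Klra4 was at 563 and 917 CPM in the S1pr5-high cluster (1.63, 1.37 to 1.94) and at 353 and 613 CPM in the S1pr5-low cluster (1.74, 1.56 to 1.93). Klra7 had ratios of 2.26 (1.70 to 3.04) and 1.59 (1.36 to 1.85), and Klrc1 of 1.92 (1.35 to 2.79) and 1.45 (1.25 to 1.68), in the S1pr5-high and S1pr5-low cluster. Each of these genes was thus higher in AKK in both clusters. Klrk1 was at 366 and 695 CPM in the S1pr5-high cluster (1.9, 1.54 to 2.35) and at 399 and 505 CPM in the S1pr5-low cluster (1.26, 1.14 to 1.40), where it did not reach 1.5-fold. Klra3 was lower in AKK in the S1pr5-high cluster, at 200 and 115 CPM (0.575, 0.404 to 0.821), and level in the S1pr5-low cluster, at 84.4 and 86.0 CPM (1.02, 0.806 to 1.3). Whether the clusters differ in these ratios was not tested.

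**Figure D3:**
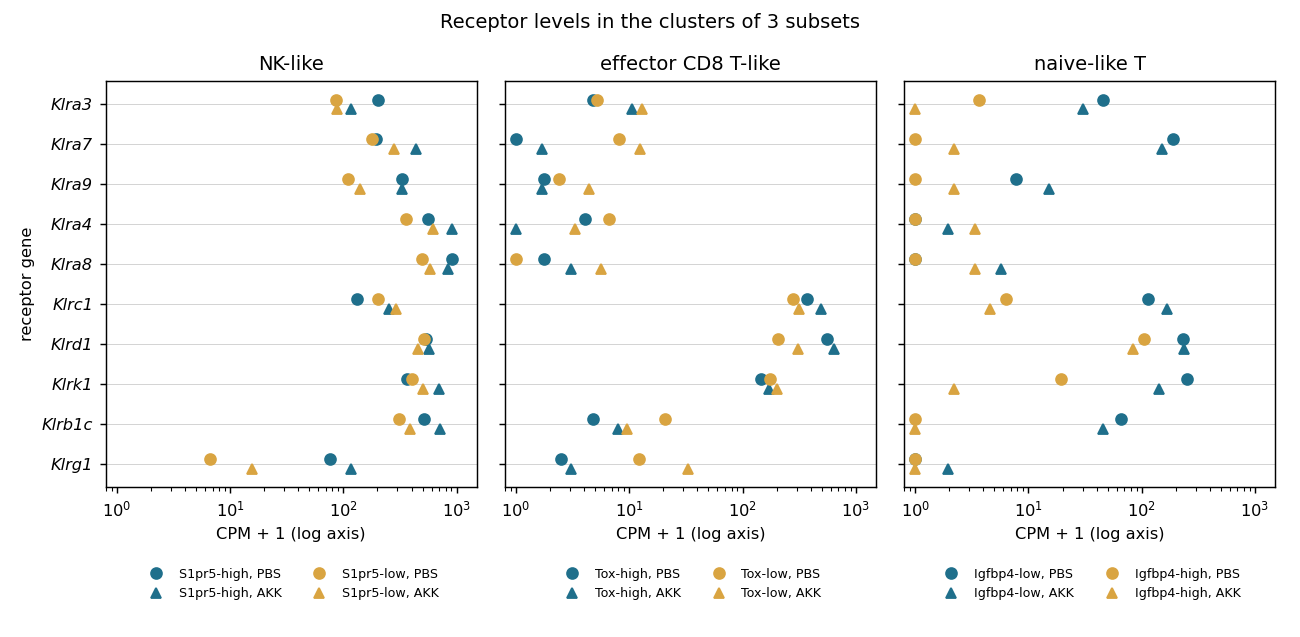
Level of the members (CPM + 1, log axis) in the clusters that make up the NK-like, effector CD8 T-like and naive-like T subsets, in PBS and AKK. Klrg1 is higher in the S1pr5-high NK-like and Tox-low CD8 clusters than in their partners, and Klra7 and Klrk1 in the Igfbp4-low cluster of the naive-like T cells.

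An NK-like cell typically carried transcripts of several Ly49 genes. Of the 5 Ly49 members, thinned NK-like cells held a mean of 1.87 in PBS (n = 144 cells) and 2.00 in AKK (n = 347 cells). At least 2 were detected in 61.8% (53.3% to 69.8%) and 66.6% (61.3% to 71.5%) of cells, and none in 19.4% and 15%. In the S1pr5-high cluster 77.5% of 40 PBS cells and 85.1% of 87 AKK cells had at least 2, against 55.8% and 60.4% in the S1pr5-low cluster. In ILC1-like cells the share was 2.56% and 2.92%, and 85.5% and 83.9% of those cells had none.

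**Figure D4:**
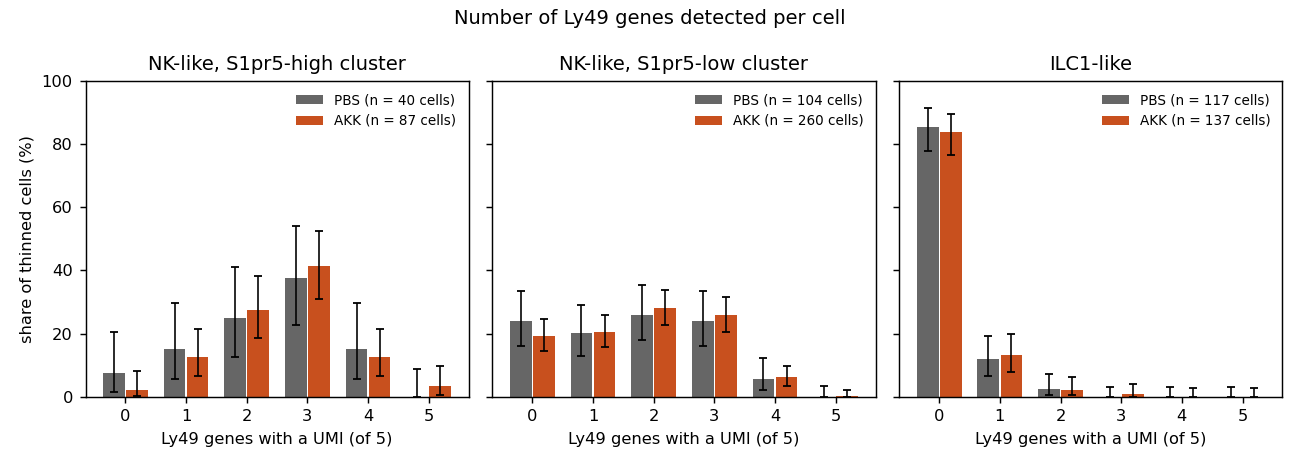
Share of cells (percent, with 95% binomial intervals) by the number of the 5 Ly49 members detected after thinning, for the S1pr5-high and S1pr5-low clusters of NK-like cells and for ILC1-like cells of PBS and AKK. NK-like cells spread over 0 to 4 genes in PBS and 0 to 5 in AKK, whereas 85.5% and 83.9% of ILC1-like cells have none.

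For the pairs described here, the shares differed in the same direction in both libraries, though not all intervals were apart. Klra4 was detected in 59.2% (47.3% to 70.4%) of the Klra8-positive and 19.1% (10.6% to 30.5%) of the Klra8-negative NK-like cells of PBS, and in 65.2% (57.8% to 72.1%) and 30.1% (23.3% to 37.7%) in AKK. The 2 activating receptors were thus often in the same cells. Whether the likeness of their promoter windows, printed above, has a part in this was not tested. The shares pool the S1pr5-high and S1pr5-low clusters. Klra7 was in 50% (38.3% to 61.7%) of Klra8-positive and 26.5% (16.5% to 38.6%) of Klra8-negative cells in PBS, where the intervals overlapped. In AKK it was in 60.8% (53.3% to 67.9%) and 36.1% (28.8% to 44.0%). Klra4 was in 50% (36.3% to 63.7%) of Klra7-positive and 34.1% (24.3% to 45.0%) of Klra7-negative cells in PBS, which also overlapped. In AKK these shares were 62.4% and 35.0%, with intervals apart. Klra3 and Klra9, the other pair with similar windows, made no such split: Klra3 was in 23.3% of Klra9-positive and 25.7% of Klra9-negative cells in PBS and in 15% and 22.1% in AKK. Klra3 and Klra9 also share 3' sequence, and its part in these shares was not tested.

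Klrc1 was found less often where Klra8 or Klra4 was detected, and for Klra7 the intervals were apart in AKK alone. In PBS it was in 23.7% of Klra8-positive and 60.3% of Klra8-negative cells, and in AKK in 36.5% and 66.3%. Against Klra4 the shares were 22.4% and 53.5% in PBS and 32.7% and 67.6% in AKK. Against Klra7 they were 32.1% (20.3% to 46.0%) and 46.6% (35.9% to 57.5%) in PBS, where the intervals overlapped. In AKK they were 37.6% (30.3% to 45.4%) and 63.3% (55.7% to 70.4%). For Klra3 they were 25% and 46.3% in PBS and 43.5% and 52.5% in AKK, and for Klra9 32.6% and 44.6%, and 41.1% and 55%, with intervals that overlapped in each library. Its partner Klrd1, found in most cells, made no such split: Klrc1 was in 40.8% of Klrd1-positive and 41.7% of Klrd1-negative cells in PBS, and in 50% and 53.7% in AKK. These are shares over the cells of 1 library each, and the cells are not replicates.

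**Figure D5:**
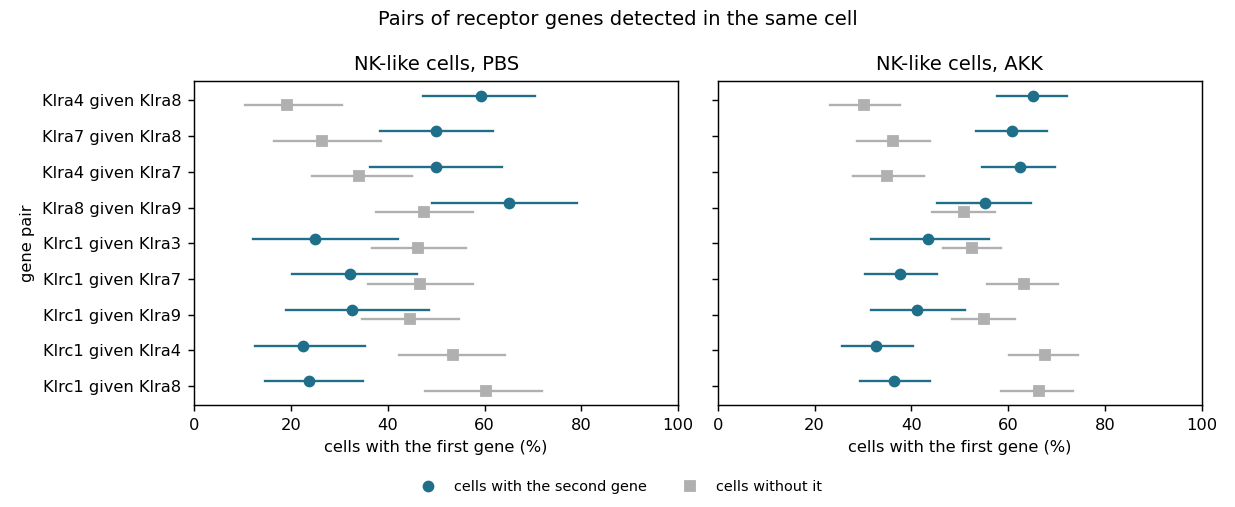
Share of NK-like cells (percent, with 95% binomial intervals) in which a receptor gene was detected, among cells with and without a UMI of another receptor gene, in PBS and AKK after thinning. Klra4 is more frequent in Klra8-positive cells (59.2% and 65.2%) than in Klra8-negative ones (19.1% and 30.1%), and Klrc1 is less frequent in them.

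In ILC1-like cells the Ly49 genes were rare and their ratios rested on few cells. Klra4 was at 3.52 CPM in PBS and 29.3 CPM in AKK, a ratio of 8.33 (3.32 to 26.9), but the AKK value came from 46 UMIs in 10 cells, of which 1 cell held 37 (80.4%). Klra8 was at 7.75 and 24.9 CPM (3.21, 1.61 to 6.95), from 11 UMIs in 3 cells and 39 UMIs in 2 cells. Klra9 was at 12 and 25.5 CPM (2.13, 1.18 to 4.01), from 17 UMIs in 6 cells and 40 in 10 cells. Those 3 of the 9 members tested were past 1.5-fold higher and 0 lower, beside 9.82% and 8.56% of all genes tested. They reached 20 UMIs through the AKK library, so their number carries no weight of its own. Klrg1 was under 20 UMIs and not tested. With doublets kept, the log2 ratio of Klra8 turned to -0.53 and that of Klra4 was 0.03. With Klr genes kept in the clustering, the log2 ratio of Klra9 was 0.29.

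The abundant receptors of ILC1-like cells differed less. Klrc1 was at 387 and 477 CPM (1.23, 1.10 to 1.38) and Klrk1 at 296 and 399 CPM (1.35, 1.19 to 1.53), both higher in AKK as in NK-like cells. Klrd1 was level at 484 and 522 CPM (1.08, 0.972 to 1.19). Klrb1c was lower in AKK, at 363 and 291 CPM (0.802, 0.706 to 0.911), whereas it was higher in AKK in NK-like cells. Klra7 and Klra3 had ratios of 1.36 (0.863 to 2.16) and 1.38 (0.810 to 2.38).

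Effector CD8 T-like cells carried transcripts of Klrd1, Klrc1 and Klrk1 with almost none of the Ly49 members. Klrc1 was 1.80-fold the NK-like level in PBS and 1.40-fold in AKK, Klrd1 0.828-fold and 0.970-fold, and Klrk1 0.391-fold and 0.346-fold. The 5 Ly49 members stood at 0.000858-fold to 0.0368-fold the NK-like level in PBS and at 0.00187-fold to 0.120-fold in AKK. Past 1.5-fold, 8 of 10 members were lower than in NK-like cells in each library, and 1 was higher in PBS and 0 in AKK. Of all genes tested, 14.4% and 15.5% were lower and 20.7% were higher in each library. In PBS, Klra3, Klra4, Klra7, Klra8, Klra9, Klrb1c and Klrg1 reached the UMI minimum through NK-like cells. In AKK, Klra4, Klra8 and Klra9 did so. The counts of lower members therefore carry no weight of their own. After thinning, Klrc1 was detected in 65.3% and 67.2% of these CD8 cells (74.1% and 74.6% unthinned), and Klrd1 in 64.2% and 69.8% (74.1% and 79.1%).

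The CD8 subset joined a Tox-high and a Tox-low cluster, Tox being a transcription factor of exhausted T cells. Tox-high cells made up 57.2% of the subset in PBS and 36.3% in AKK, so most cells came from different clusters in the 2 libraries. Klrd1 was 2.68-fold and 2.09-fold higher in the Tox-high than in the Tox-low cluster, and Klrc1 1.32-fold and 1.58-fold. Klrk1 was 0.834-fold and 0.848-fold. Klrg1 was the reverse, at 0.0643-fold (0.0129 to 0.198) in AKK, from 3 against 56 UMIs.

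Between libraries, Klrc1 was at 335 and 393 CPM in effector CD8 T-like cells (1.17, 1.07 to 1.29), Klrd1 at 430 and 461 CPM (1.07, 0.984 to 1.17) and Klrk1 at 154 and 187 CPM (1.22, 1.06 to 1.40). Tox-high cells were 57.2% of the subset in PBS and 36.3% in AKK, and the part of this mixture in these ratios was not tested. After thinning, Klrd1 was detected in 72.3% and 81.8% of Tox-high cells and in 52.8% and 62.0% of Tox-low cells. The intervals of the libraries overlapped in both clusters. Klrg1 was at 4.94 and 18.5 CPM (3.74, 1.9 to 8.20), from 10 UMIs in 7 cells and 59 UMIs in 36 cells. Within the Tox-low cluster, where it was mostly found, Klrg1 was at 11.3 and 32.1 CPM (2.85, 1.35 to 6.92). In the whole subset its log2 ratio ran from 1.39 to 2.32 over 8 other processing choices. Leaving out the UMI minimum, 1 of the 8, could not change it. Klra3 was at 3.95 and 11 CPM (2.77, 1.26 to 6.92), and Klra7 at 2.47 and 6.57 CPM (2.66, 0.977 to 9.04). The Klra7 UMIs were 5 in 1 cell against 21 in 4 cells, with 15 in 1 of them, and its log2 ratio turned to -1.41 with doublets kept. The log2 ratio of Klra3 was 0.31 with doublets kept. These 3 of 7 members tested were past 1.5-fold higher and 0 lower, beside 7.0% and 9.02% of all genes tested, and they too reached 20 UMIs through AKK.

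Among the naive-like T cells a cluster with low Igfbp4 carried transcripts of NK receptors. It held 42.4% of the subset in PBS and 53.7% in AKK. Klra7 was at 188 CPM there in PBS and 0 in the Igfbp4-high cluster, which is at least 23.7-fold higher against a floor of 3 UMIs, and in AKK at 150 CPM against 1 UMI, a ratio of 126 (22.3 to 5014). Klrk1 was 13.5-fold higher in PBS and in AKK at 142 CPM against 1 UMI (119, 21.0 to 4732). Klrb1c had 0 UMIs in the Igfbp4-high cluster of both libraries and was at least 8.18-fold and 12.4-fold higher in the Igfbp4-low cluster. This cluster had Cd8a at 157 and 105 CPM, against 100 and 143 CPM in the Igfbp4-high cluster. Cd4 was at 3.41 and 0.945 CPM against 44.9 and 28.6 CPM. Ikzf2, which encodes Helios, was at 819 and 1531 CPM against 37.0 and 31.0 CPM, and Foxp3 was at 0 in the Igfbp4-low cluster. Those 4 genes were chosen after their values were seen, as were those that follow. Over both libraries, Ccr7 was detected in 41.2% of Igfbp4-low and 88.7% of Igfbp4-high cells, and Lef1 in 86.6% and 96.5%. Eomes was detected in 37.8% and 8.70%, and Tbx21, which encodes T-bet, in 58.0% and 10.4%. The naive-like name rested on 5 detected markers in the Igfbp4-low cluster and 7 in the Igfbp4-high cluster.

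Over the whole naive-like subset Klrc1 was at 52.1 CPM in PBS and 93.3 CPM in AKK (1.79, 1.24 to 2.65), the 1 of 6 members tested past 1.5-fold higher, with 0 lower (13.3% and 9.91% of all genes). Within the Igfbp4-low cluster the ratio was 1.46 (1.0 to 2.19), and the cluster's share also differed between libraries. Klrk1 was lower in AKK, at 119 and 79.6 CPM (0.668, 0.506 to 0.888), and at 249 and 142 CPM within the Igfbp4-low cluster (0.569, 0.428 to 0.764). Klra7 was level at 81.9 and 84.3 CPM, and Klrd1 at 159 and 167 CPM.

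KLRG1 marks a class of activated regulatory T cells, and Klrg1 was the main member in Treg-like cells. It was at 231 CPM in PBS and 272 CPM in AKK (1.18, 0.968 to 1.44), detected in 42.1% and 45.5% of thinned cells (53.6% and 52.3% unthinned), so the libraries did not differ beyond counting error. Klrd1 was at 14.6 and 25.4 CPM (1.74, 0.819 to 4.01), the 1 of 2 members tested past 1.5-fold higher, with 0 lower (13.1% and 11.3% of all genes) and with an interval that includes 1. In CD4 helper-like cells Klrc1 was at 87.8 and 57.5 CPM (0.655, 0.466 to 0.920) and Klrk1 at 26.5 and 13.6 CPM (0.513, 0.256 to 1.01), 2 of 3 members tested past 1.5-fold lower, with 0 higher (14.3% and 10.1% of all genes). The CD4 cells formed 2 clusters that held 44 and 47 cells in PBS and 28 and 131 in AKK. Within them Klrc1 was at 121 and 107 CPM, and at 42.6 and 41.3 CPM.

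The unnamed T cluster, with the NKT cell factor Zbtb16 at 653 and 1231 CPM, Il4 at 111 and 86.2 CPM and Cd8a at 0 (genes chosen after their values were seen), held 25 and 60 cells. It expressed Klrc1 at 300 and 263 CPM, Klrk1 at 286 and 227 CPM, Klrd1 at 237 and 169 CPM and Klrb1c at 213 and 143 CPM. Klra9 was at 145 CPM in PBS and 64.7 CPM in AKK (0.445, 0.263 to 0.756). Klra4 had 0 UMIs in PBS and 4 in AKK there. Gamma-delta T-like cells, too few in PBS for a comparison, had Klrk1 at 158 and 226 CPM and Klrc1 at 29.8 and 47.6 CPM.

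Other receptors of the NK gene complex, signalling partners and ligands were read from fixed lists in NK-like cells, where 10.2% of all genes tested were past 1.5-fold higher and 10.9% lower. Of 13 further receptors tested (15 of 16 listed were in the matrices), 4 were past 1.5-fold higher in AKK and 0 lower. They were Klra1 (Ly49A, an inhibitory receptor) at 31.2 and 57.5 CPM (1.84, 1.34 to 2.58), Klra5 (1.61, 1.0 to 2.68), Klra6 (2.00, 0.957 to 4.70) and Klra10 (2.55, 1.25 to 5.90). Klra6 and Klra10 had 9 UMIs each in PBS and reached 20 UMIs through AKK, so their count carries no weight. Of 12 signalling partners 1 was higher, Cd247, the CD3 zeta chain used by activating receptors, at 369 and 613 CPM (1.66, 1.51 to 1.82). The adaptors Tyrobp, at 774 and 731 CPM, and Hcst, the NKG2D adaptor DAP10, at 341 and 298 CPM, were not. Of 9 other NK receptors 1 was higher, the activating DNAM-1 gene Cd226 (64.4 and 108 CPM; 1.68, 1.35 to 2.13). Of 9 transcription factors 3 were higher, Ikzf2 (87.1 and 198 CPM, 2.27), Tox (256 and 552 CPM, 2.16) and Prdm1 (37.7 and 56.6 CPM, 1.5).

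Of 8 ligand genes tested in NK-like cells 2 were past 1.5-fold higher in AKK and 1 lower (10.2% and 10.9% of all genes tested). The NKG2D ligand genes Raet1e and Ulbp1 were at 26.7 and 43.4 CPM (1.63, 1.14 to 2.36) and at 15.6 and 31.7 CPM (2.03, 1.29 to 3.30). Cdh1, the E-cadherin ligand of KLRG1, was at 125 and 26.1 CPM (0.209, 0.161 to 0.270), and in ILC1-like cells at 163 and 46.5 CPM (0.285, 0.216 to 0.372). Cdh1 was also lower in AKK in naive-like T cells, at 61.0 and 36.4 CPM (0.596, 0.399 to 0.899), and in CD4 helper-like cells, at 30.1 and 7.19 CPM (0.239, 0.0982 to 0.529). It was level in effector CD8 T-like cells, at 42.9 and 42.6 CPM, and higher in macrophage-like cells, at 38.5 and 65.7 CPM (1.71, 1.5 to 1.95). Whether these subsets differ was not tested. H2-T23, which encodes Qa-1b, was at 107 and 97.0 CPM, and the classical class I gene H2-K1 at 1820 and 2193 CPM (1.21, 1.15 to 1.26).

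The same lists were read in ILC1-like cells, where 9.82% of all genes tested were past 1.5-fold higher and 8.56% lower. Among 11 further receptors tested, Klra1 (2.16, 1.22 to 3.98) and Klrc3 (1.91, 1.06 to 3.56) were higher in AKK, and Klrb1 (0.340, 0.159 to 0.677) and Klrb1a (0.496, 0.386 to 0.633) were lower. None of 12 signalling partners passed. Of 8 ligand genes, Cdh1 was lower and Clec2d and Clec2i, ligand genes of the NKR-P1 receptors, were higher, at 10.6 and 21.7 CPM (2.05, 1.09 to 4.06) and at 35.9 and 55.5 CPM (1.54, 1.08 to 2.23). Klra1, Klrc3 and Clec2d reached 20 UMIs through AKK and Klrb1 through PBS. Of 9 other NK receptors 3 were higher. Cd226 was again higher, at 216 and 351 CPM (1.63, 1.41 to 1.88), with Ncr1, which encodes NKp46 (1.65, 1.37 to 2.00), and Slamf7 (1.73, 1.27 to 2.37). Of 9 transcription factors 1 was higher, Tox, at 523 and 977 CPM (1.87, 1.71 to 2.04).

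In effector CD8 T-like cells 7.0% of all genes tested were past 1.5-fold higher and 9.02% lower. Of 9 transcription factors, Eomes, at 40.5 and 71.1 CPM (1.76, 1.36 to 2.29), and Tcf7, at 110 and 213 CPM (1.94, 1.66 to 2.27), were higher in AKK, and Ikzf2, at 920 and 453 CPM (0.492, 0.459 to 0.527), was lower. The Tox-high cluster made up 57.2% of this subset in PBS and 36.3% in AKK, and its part in these values was not tested. Of 8 other NK receptors, Slamf7 was higher (1.51, 1.19 to 1.93) and Fcgr3, which encodes an activating Fc receptor, lower (0.609, 0.333 to 1.11). Of 6 further receptors of the NK gene complex Klra5 was lower (0.660, 0.362 to 1.21). The intervals of Fcgr3 and Klra5 include 1. None of 12 signalling partners and 8 ligand genes passed.

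Genes whose levels followed a member closely were sought among 9652 genes over 12 profiles, 6 lymphocyte subsets in 2 libraries. Pearson's r of log2(CPM + 10) was highest for Phactr3 with Klra4 (0.991), Rasl12 with Klra8 (0.992) and Klra9 (0.982), Lpin1 with Klra3 (0.959) and Pde2a with Klra7 (0.961). It was highest for Fcer1g with Klrb1c (0.992), Slc25a16 with Klrc1 (0.943), Ttc7b with Klrk1 (0.961) and Gbp3 with Klrg1 (0.966). The profiles of a library share its depth and free RNA, and the values describe these 12 profiles alone.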

How the data were processed

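Raw UMI counts per gene and cell were deposited by the authors as 10x matrices. Per the file headers Cell Ranger 7.1.0 wrote them, but Cell Ranger 5.0.1 and mm10 stand in the submitters' processing notes; the intron setting was not given in the sources used here. Whether intronic reads were counted can change levels. Cells with at least 200 genes and at most 15% mitochondrial UMIs were kept, and predicted doublets, at a rate set by the number of barcodes, were removed, so that 255 and 93 barcodes failed the filters and 197 and 345 were called doublets in PBS and AKK. Clustering used scanpy 1.11.5 (2000 variable genes, 30 components, 15 neighbours, resolution 1.0). T, NK and ILC1 cells were clustered again (1500 genes, 20 components). All Klr genes were left out of both steps. Clusters were named from fixed markers with at least 3 detected. The naming settings (Cd3e in 30% of cells, a minimum score of 0.8) were chosen after the clusters were seen. UMIs were summed per subset and library, and ratios have exact conditional binomial intervals, shares exact binomial (Clopper-Pearson) ones. Intervals and the floor of 3 counts cover counting error only. Ratio intervals take each UMI as a separate draw and hold no spread between cells. Genes with at least 20 UMIs were compared with a 1.5-fold threshold, which is a rule of size and no statistical test. Scripts ran in python 3.11.15 with numpy 2.4.6, scipy 1.17.1 and igraph 0.11.9, edgeR 4.0.16 in R 4.3.3 gave TMM factors, and biopython 1.88 aligned promoters. The scripts were tested on simulated data.

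The members and gene lists were chosen with earlier results of these data known. All 10 members are named, together with the list genes past 1.5-fold in NK-like, ILC1-like and effector CD8 T-like cells, the abundant ligands, and the gene most like a member, which for Klrd1 is not reported here. No protein comparison was made. Alternatives were other gates, resolution 2.0, a minimum of 500 genes, doublets kept, Klr genes kept, cells weighted alike, TMM scaling and no UMI minimum. Leaving out the S1pr5-high cluster or cells with a Cd3 UMI was added after the data were seen.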

Additional observations from a re-analysis of the deposited data

How the results depend on the processing

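Of the members past 1.5-fold, 4 recomputed values changed sign. Klra8 in ILC1-like cells had a log2 ratio of -0.53 with doublets kept. Klra7 in effector CD8 T-like cells had -0.55 with Klr genes kept in the clustering, -1.41 with doublets kept and -1.54 with at least 500 genes per cell. Ratios within 1.5-fold also changed sign in places: in NK-like cells Klra9 had -0.06 with each cell weighted alike and Klra3 0.03 without the S1pr5-high cluster, in ILC1-like cells Klra3 had -0.18 with at least 500 genes and Klra7 -0.34 with cells weighted alike, and in naive-like T cells Klra3 had 0.61 with at least 500 genes. The number of members past 1.5-fold was 2 in NK-like cells under gates on single markers (4 as reported), 1 in ILC1-like cells with Klr genes kept (3 as reported) and 6 in effector CD8 T-like cells with no UMI minimum (3 as reported). The median difference of NK-like over ILC1-like cells in PBS was 1.42 at resolution 2.0 and 2.22 under gates, and in AKK 1.76 under gates and 0.98 without the S1pr5-high cluster, against 1.73 and 1.43 as reported. The cause was not tested. Without cells with a Cd3 UMI, 2 members passed in ILC1-like cells, Klra3 and Klra7, while Klra4, Klra8 and Klra9 had under 20 UMIs. No paired analysis was possible because each group has 1 library, and for the same reason no replicate could be left out. With 1 library per group, feeding cannot be told apart from mouse, tumour or library.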

Other observations

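NKG2D transcripts were also read outside the lymphocytes. In macrophage-like cells Klrk1 was at 8.74 CPM in PBS and 36.4 CPM in AKK, a ratio of 4.17 (3.30 to 5.31), from 60 of 606 cells (9.90%) and 114 of 514 cells (22.2%). After thinning to 4169 UMIs the shares were 2.97% and 11.4%, against 0.416% and 1.09% in neutrophil-like cells. Klrd1 was at 3.51 and 10.9 CPM in the same macrophage-like cells (3.09, 2.09 to 4.65). Klra8 was at 0.991 and 2.65 CPM (2.67, 1.22 to 6.18) and Klrc1 at 1.08 and 2.92 CPM (2.70, 1.28 to 5.98), from 11 to 22 UMIs. The other members with at least 20 UMIs were not higher: Klra4 was at 2.88 and 2.65 CPM, Klrb1c at 5.5 and 5.17 CPM and Klra3 at 2.61 and 1.99 CPM. NK-like cells made up 3.41% and 6.25% of the kept cells, and the part of their free RNA in these values was not tested.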
